A study of Mus musculus with 6 samples.

Results

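The cohesin ring, assembled from *Smc1a*, *Smc3*, *Rad21* and a *Stag* protein, is placed on chromosomes, taken off again and locked around sister chromatids by a small set of regulators. The 10 genes described here encode such regulators: the loader *Nipbl* and its partner *Mau2*, the release factor *Wapl* with *Pds5a* and *Pds5b*, the boundary factor *Ctcf*, the acetyltransferases *Esco1* and *Esco2*, *Cdca5*, which encodes sororin, and the deacetylase *Hdac8*. They are the rows of the count matrices that carry these symbols, 10 of the 31053 genes counted, and each was detected and passed the filter on low counts in every comparison.

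As background, *Nipbl* and *Mau2* bring cohesin onto DNA, and the ring then extrudes loops until it meets *Ctcf* or is released by *Wapl* and a *Pds5* protein. While DNA is copied, *Esco2* acetylates *Smc3*, sororin binds the acetylated complex and holds off *Wapl*, and the sister chromatids stay tied until mitosis. *Esco1* acetylates the same subunit outside DNA replication, and *Hdac8* removes the mark so that cohesin can be used again. Germinal center (GC) B-cells divide quickly as centroblasts (CB) in the dark zone, are selected as centrocytes (CC) in the light zone, and then return to division or leave as memory or plasma cells (PC).

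The data are 6 single cell RNA-seq libraries of splenic cells sorted from mice immunized with sheep red blood cells. All 6 carry *Cγ1*-Cre, which is active in B-cells that enter the GC reaction. The labels give 3 of them as Cgamma1-Cre WT Control, written *Smc3* wt/wt here, and 3 as Cgamma1-Cre *Smc3* +/-, written *Smc3* wt/-, in which 1 copy of *Smc3* is removed by Cre. Naive cells of the same spleens have not entered the GC reaction and need not carry the deletion. The removed exon lies upstream of the transcript ends that were counted, so the *Smc3* counts cannot show the loss of the exon itself. The study reported reduced *Smc3* expression by RNA-seq in lymphomas of *Smc3* wt/- mice with a *Bcl6* transgene, which are other samples. The labels number the libraries without tying them to animals, so the p-values measure the spread between libraries.

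Counts are unique molecular identifiers (UMIs), each standing for 1 captured transcript molecule. The libraries held between 5223325 and 35354257 UMIs, and 20847 of 22939 barcodes were kept, of which 19563 were B lineage cells in 8 states. A total of 274 barcodes occurred in 2 libraries and 2 occurred in 3. A level below is given in CPM: the UMIs of a gene over all cells of a group in 1 library, as a share of the UMIs outside the immunoglobulin genes and scaled to the same total in every group. Intervals on counts and shares cover counting error only.

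The library labelled *Smc3* wt/- replicate 2 stood apart before any comparison was made. In it 51.9% of UMIs fell on immunoglobulin genes, where the range of the remaining 5 was 2.37% to 3.90%. It gave 1745 of the 2070 plasma cells and 351 of the 11920 GC B-like cells, where the others gave between 654 and 3281. In its GC B-like cells the 17 plasma cell markers summed to 5470 CPM, against 3360 to 3960 CPM in the others, and 0 of the markers were at 0. Results that rest on it are given with and without it.

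The first comparison asked which regulators followed the division cycle. The GC B-like cells, that is the CB-like, S-phase, CC-like and recycling-like states, were assigned to G1 (2448 cells), S (3845 cells) or G2M (5402 cells) from genes that included no cohesin gene. The establishment factors *Esco2* and *Cdca5* were several-fold higher in S and G2M than in G1, *Ctcf* was higher in G2M than in S or G1, and the loaders and release factors differed by 1.60-fold at most. *Esco1* passed the test in none of the 3 comparisons, a result that changed when a cluster without a name was counted as GC B-like. UMIs were summed per library and phase and tested with edgeR's quasi-likelihood test with the library as a term and Benjamini-Hochberg adjustment. Both comparisons with G1 use the same G1 sums.

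Between S and G1, 5 members rose and 1 fell, where 33.2% of the 9409 genes tested differed in either direction. Between G2M and G1, 8 rose and 0 fell, where 46.6% of genes differed. Between G2M and S, 6 rose and 2 fell, where 48.4% of genes differed. The median log2 fold change of the members was 0.21, 0.31 and 0.18 in the 3 comparisons, and that of all genes tested was -0.02, -0.01 and 0.00. The G1 cells were shallower, with a median of 4806 UMIs outside the immunoglobulin genes against 6259 in S and 7221 in G2M. Counted per cell instead of in CPM, the median gene shifted by 0.31 in S and by 0.51 in G2M against G1, and by 0.21 between G2M and S, on the log2 scale.

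**Figure D1:**
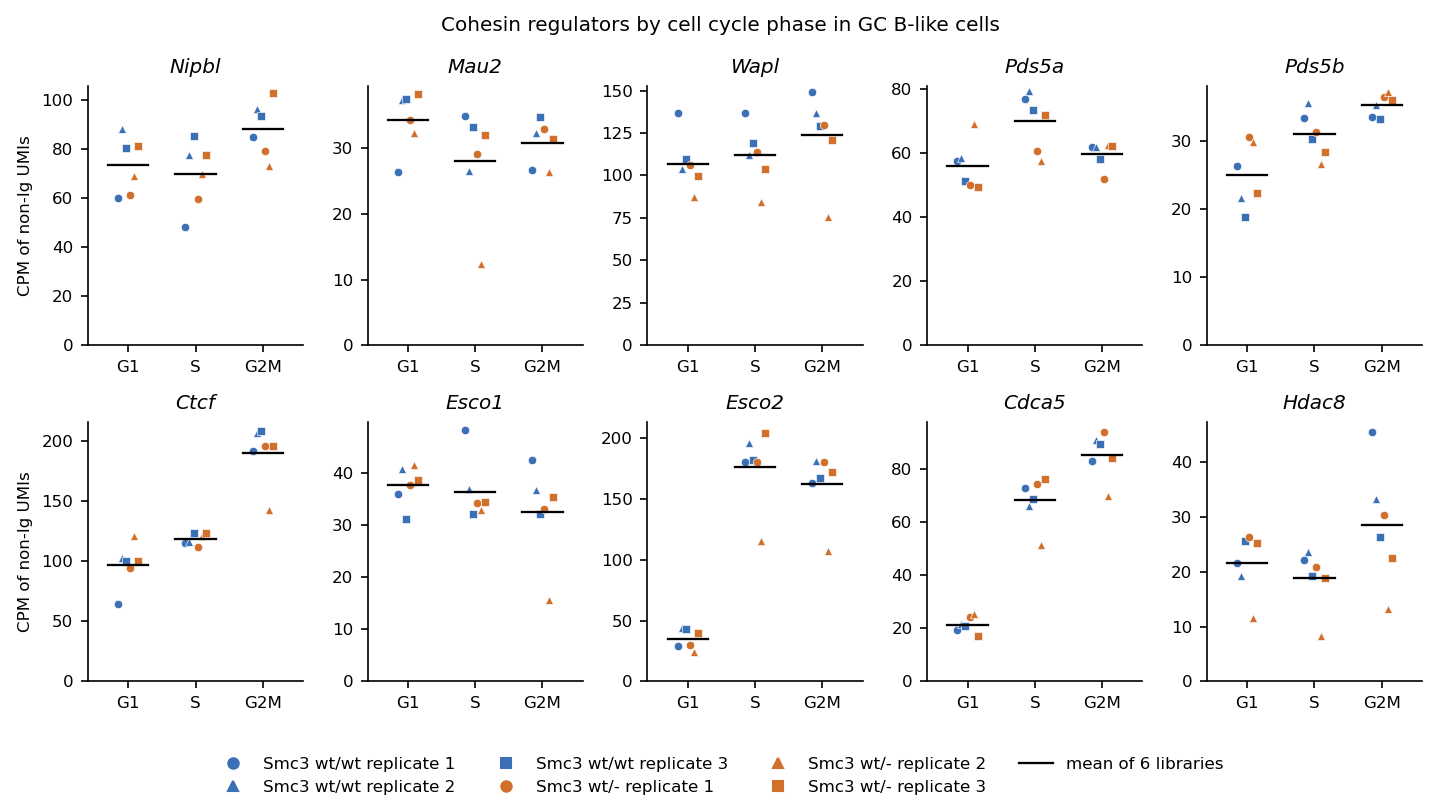
Level of each regulator in CPM of non-immunoglobulin UMIs (vertical axis, from 0) by phase (horizontal axis) in GC B-like cells, with 1 point per library and the mean as a bar. *Esco2* and *Cdca5* lie between 16.9 and 44.2 CPM in G1 and at or above 51.4 CPM in S and G2M in each of the 6 libraries, and *Ctcf* in G2M lies above its S values in each library.

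*Esco2*, the acetyltransferase of the replication fork (chr14:65819038-65833994, minus strand, GENCODE M21 on GRCm38), had the largest fold of the 10 in S against G1. In G2M against G1 it was close to *Cdca5*, at 4.44-fold and 4.36-fold with all libraries and 4.43-fold and 4.48-fold without *Smc3* wt/- replicate 2. Its level in G1 ran from 24.1 CPM over a median of 34.6 CPM to 44.2 CPM, and in S from 115 CPM over 181 CPM to 204 CPM. In G2M it ran from 107 CPM over 169 CPM to 181 CPM. No S or G2M value reached down to a G1 value, and in S and G2M the lowest value came from *Smc3* wt/- replicate 2. The level was 4.86-fold higher in S than in G1 (log2 fold change 2.28, SE 0.06, edgeR adjusted p = 6.62e-28) and 4.44-fold higher in G2M than in G1. Between S and G2M it fell by 0.13 on the log2 scale (edgeR adjusted p = 0.00872), a call that was lost without *Smc3* wt/- replicate 3 (log2 fold change -0.09, edgeR adjusted p = 0.11) and that read 0.07 per cell. It was also lost under DESeq2's Wald test (adjusted p = 0.12), with phases called without thinning (-0.02, edgeR adjusted p = 0.61) and with thinning to 1000 UMIs (-0.09, edgeR adjusted p = 0.073).

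The share of cells with an *Esco2* UMI, after each cell was thinned to 2000 UMIs, was 29.2% in S (exact 95% interval 27.7% to 30.6%) and 27.7% in G2M (26.5% to 28.9%), against 5.72% in G1 (4.83% to 6.71%). Without thinning the shares were 61.2%, 62.3% and 13.8%, at median depths of 6357, 7359 and 4877 UMIs. In naive or memory B-like cells, which are mostly outside the cycle, 1.04% of the 1156 cells deep enough to be thinned had an *Esco2* UMI (0.537% to 1.81%). Over libraries the naive or memory share ran from 0% to 4.17% and the G1 share from 2.91% to 6.78%, which overlap, while within libraries the *Esco2* level was higher in G1 than in naive or memory B-like cells in 6 of 6. The S and G2M shares ran from 23.5% to 31.4% and from 17.7% to 31.4%.

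*Cdca5*, whose product sororin protects cohesin from release (chr19:6084983-6091777, plus strand), was also higher in S and in G2M than in G1, and was higher in G2M than in S. Its level ran from 16.9 to 25.3 CPM in G1, from 51.4 to 76 CPM in S and from 69.6 to 93.7 CPM in G2M, with medians of 21.3, 70.8 and 86.7 CPM. All S and G2M values lay above all G1 values, while S and G2M overlapped. It was 3.48-fold higher in S than in G1 and 4.36-fold higher in G2M than in G1 (edgeR adjusted p = 1.32e-20 and 8.13e-25). Between G2M and S *Cdca5* was 1.25-fold higher in G2M (log2 fold change 0.32, SE 0.05, edgeR adjusted p = 1.18e-06).

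*Esco1*, the acetyltransferase that works outside replication, gave no call in any phase comparison. Its medians were 38.2 CPM in G1, 34.3 CPM in S and 34.3 CPM in G2M, and the ranges over libraries overlapped in all 3 phases. Its log2 fold change was -0.06 (SE 0.09) in S and -0.08 (SE 0.08) in G2M against G1, and per cell it read 0.27 and 0.44, close to the shift of the median gene. These results depended on which cells were counted: with the unnamed Pxdc1-led cells counted as GC B-like, *Esco1* was called lower in S and in G2M than in G1 (log2 fold change -0.32 and -0.34, edgeR adjusted p = 0.00025 and 3.8e-05). The ratio of *Esco2* to *Esco1* UMIs within a library was 5.28-fold in S against G1, higher in 6 of 6 libraries with a range of 4.09-fold to 6.65-fold. An exact two-sided sign-flip permutation test over the 6 libraries gave p = 0.03125, the smallest it can give, and 0.0536 after adjustment over 12 such ratios, which were chosen with values known.

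*Ctcf*, the zinc finger protein at which loops end (chr8:105636568-105682922, plus strand), had the largest fold of the 10 between G2M and S. It ran from 64.7 to 121 CPM in G1 and from 112 to 124 CPM in S, with medians of 100 and 119 CPM, and from 143 to 209 CPM in G2M, with a median of 196 CPM. The G2M values stood above all others, the lowest of them again from *Smc3* wt/- replicate 2. The level was 1.67-fold higher in G2M than in S, 2.04-fold higher in G2M than in G1 and 1.22-fold higher in S than in G1 (edgeR adjusted p = 1.35e-16, 5.59e-19 and 0.000337).

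Promoter sequences were read for every member with an entry, because the element TTTGAA, known as the cell cycle genes homology region, is found in promoters of genes that are expressed late in the cycle. RefSeq promoters on GRCm38.p6 were held for 7 of the 10 members, as 8 entries, and not for *Nipbl*, *Esco1* and *Esco2*. TTTGAA was searched on both strands in the 250 bases before the RefSeq start site. RefSeq and GENCODE M21 start these genes at different bases, and the stretches shown for *Cdca5*, *Pds5b* and *Hdac8* lie inside the GENCODE gene whose coordinates are given here, downstream of its first base. It was present for *Cdca5*, *Ctcf*, *Hdac8* and *Pds5b*, at 2 places for *Cdca5* and for *Hdac8*, and it was absent from these windows for *Mau2*, *Pds5a* and *Wapl*. Among 32900 promoters of the same length, 16% held it and 1.81% held it at 2 or more places. The stretches below are 30 bases each, in the direction of transcription, with the element in capitals, and they show how the pair of elements in *Cdca5* lies against the RefSeq start site.
*Cdca5*, chr19:6085067-6085096, plus strand, ending 1 base before the RefSeq start site: gcaaggcgggcaaTTTGAAcgTTTGAAgca
*Pds5b*, chr5:150673776-150673805, plus strand: gagctgctcttggcgccatTTTGAAgcgga
*Hdac8*, chrX:102505277-102505306, minus strand: atatctgtcaggcacctttTTTGAActgtg
*Ctcf*, chr8:105636358-105636387, plus strand: tgacgccatcgcgccggctTTTGAAagttg
A match is a description of these letters. *Wapl* and *Pds5a*, which were also higher in G2M than in G1, had none in their windows.

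The paralogs *Pds5a* and *Pds5b*, which sit on the ring and help both *Wapl* and sororin, had different calls between G2M and S. *Pds5a* had medians of 54.4 CPM in G1, 72.7 CPM in S and 61.9 CPM in G2M, with ranges of 49.5 to 69, 57.6 to 79.4 and 52 to 62.4 CPM. It was 1.39-fold higher in S than in G1 and then lower in G2M than in S, by 0.28 on the log2 scale with an SE of 0.05 (edgeR adjusted p = 1.74e-07 and 1.45e-05). Per cell the second difference was -0.07 (edgeR adjusted p = 0.33), below the shift of the median gene. Its 1.14-fold difference between G2M and G1 was lost without *Smc3* wt/- replicate 3 (log2 fold change 0.14, edgeR adjusted p = 0.15) or *Smc3* wt/wt replicate 3 (log2 fold change 0.18, edgeR adjusted p = 0.059), and with thinning to 1000 UMIs (log2 fold change 0.13, edgeR adjusted p = 0.095).

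*Pds5b* (chr5:150673739-150810690, plus strand) had its highest median in G2M, 35.7 CPM. Its level ran from 18.8 to 30.6 CPM in G1, from 26.7 to 35.6 CPM in S and from 33.3 to 37.2 CPM in G2M. Each G2M value lay above each G1 value. It was 1.43-fold higher in S and 1.60-fold higher in G2M than in G1 (edgeR adjusted p = 4.25e-05 and 3.84e-08). The difference between G2M and S, 1.12-fold at an edgeR adjusted p of 0.0469, was lost without *Smc3* wt/- replicate 1, *Smc3* wt/- replicate 3 or *Smc3* wt/wt replicate 3 (edgeR adjusted p = 0.11, 0.31 and 0.084). It was lost in 9 of 18 alternatives in all, among them DESeq2's Wald test (adjusted p = 0.13), a looser cell filter (edgeR adjusted p = 0.1) and no integration (edgeR adjusted p = 0.071). The *Pds5b* to *Pds5a* ratio was 1.33-fold higher in G2M than in S, in 6 of 6 libraries with a range of 1.24-fold to 1.47-fold (exact permutation p = 0.03125, 0.0536 adjusted over 12 ratios).

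*Wapl*, which opens the ring and releases it (chr14:34673928-34747983, plus strand), changed little. Its medians were 105, 113 and 130 CPM in G1, S and G2M, and the ranges overlapped. It was 1.25-fold higher in G2M than in G1 and 1.14-fold higher than in S (edgeR adjusted p = 1.32e-06 and 0.000259). Between S and G1 its log2 fold change was 0.12 at an edgeR adjusted p of 0.0704, which passed in 7 of 18 alternatives, among them without *Smc3* wt/- replicate 2 (log2 fold change 0.14, edgeR adjusted p = 0.027).

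The loader subunits gave different calls in G2M. *Nipbl* (chr15:8290617-8444463, minus strand) had medians of 74.6, 73.7 and 89.1 CPM in G1, S and G2M, with ranges of 59.9 to 88.4, 48.1 to 85.4 and 73.2 to 103 CPM. It was 1.23-fold higher in G2M than in G1 and 1.25-fold higher than in S (edgeR adjusted p = 8.48e-05 and 1.7e-06), with no call between S and G1. *Mau2* had medians of 35.7, 30.5 and 31.8 CPM and was the one member called lower in S than in G1, at 0.844-fold (edgeR adjusted p = 0.0277). That call was lost without *Smc3* wt/wt replicate 2 (log2 fold change -0.17, edgeR adjusted p = 0.24) or *Smc3* wt/- replicate 3 (-0.25, edgeR adjusted p = 0.072), without integration (edgeR adjusted p = 0.055), without the count filter (0.068) and with thinning to 1000 UMIs (0.082), and per cell the value was 0.07. The *Nipbl* to *Mau2* ratio was 1.35-fold in G2M against G1, higher in 6 of 6 libraries (exact permutation p = 0.03125, 0.0536 adjusted over 12 ratios). Against S it was 1.12-fold, higher in 5 of 6 libraries with a range of 0.489-fold to 2.30-fold (exact permutation p = 0.53125, 0.708 adjusted), so neither ratio passed after adjustment. *Mau2* was not called in G2M against G1 (log2 fold change -0.14, edgeR adjusted p = 0.147) or against S (0.10, edgeR adjusted p = 0.241). Against S it passed with thinning to 1000 UMIs (0.19, edgeR adjusted p = 0.026) and per cell (0.31). With the Pxdc1-led cells, a cluster without a name, counted as GC B-like, *Mau2* was also called lower in G2M than in G1 (log2 fold change -0.30, edgeR adjusted p = 0.00043), as it was with phases called without thinning (-0.29, edgeR adjusted p = 0.012).

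*Hdac8*, which resets acetylated cohesin (chrX:102284639-102505359, minus strand), had medians of 23.4, 20.1 and 28.3 CPM in G1, S and G2M. Its spread was wide, with 13.2 CPM in *Smc3* wt/- replicate 2 and 45.5 CPM in *Smc3* wt/wt replicate 1 in G2M. It was 1.39-fold higher in G2M than in S (log2 fold change 0.47, SE 0.09, edgeR adjusted p = 2.06e-05). The 1.24-fold difference from G1 was lost without *Smc3* wt/wt replicate 2 (log2 fold change 0.12, edgeR adjusted p = 0.45), under DESeq2's Wald test (adjusted p = 0.051) and with phases called without thinning (edgeR adjusted p = 0.061), and without the same library the lower value in S passed (log2 fold change -0.36, edgeR adjusted p = 0.034).

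With *Smc3* wt/- replicate 2 left out, the members called between S and G1 were 6 up and 1 down, where 35% of genes differed, and 8 up between G2M and G1, where 47.5% differed. As log2 fold changes against G1, *Esco2* then read 2.28 in S and 2.15 in G2M, and *Cdca5* 1.84 and 2.16. Over all alternatives *Esco2* ran from 1.71 to 3.44 in S and from 1.62 to 3.42 in G2M, and *Cdca5* from 1.41 to 3.03 and from 1.65 to 3.44.

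A finer order is given by the 5 clusters of cycling GC B-like cells, which are named here by their leading genes. Their order, from replication genes over histone genes and G2 kinases to genes of mitosis, was set from what the leading genes are known to do, with values known. The Ung-led cluster is the S-phase state, with 70.6% of its cells called S, and the Mxd3-led, Aurka-led, Cenpf-led and Cdc20-led clusters make up the CB-like state. Of the Cdc20-led cells 61.3% were called G2M and 36.3% G1, where the other CB-like clusters had 0% to 0.852% in G1. These values are a description with no test, since clusters were made from the genes of the same cells. *Esco2* averaged 146 CPM in the Ung-led cluster (SD 35, n = 6 libraries), 269 in the Mxd3-led, 208 in the Aurka-led, 111 in the Cenpf-led and 29.7 CPM in the Cdc20-led cluster. Its highest mean stood in the Mxd3-led cluster, and in the Cdc20-led cluster all 6 libraries lay between 24.7 and 34.3 CPM, below every value of the other 4. *Cdca5* peaked in the same cluster, at 119 CPM (SD 18.8), and kept 81.7 CPM in the Cenpf-led cluster before 24.7 CPM in the Cdc20-led one.

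*Ctcf* was lowest at both ends, with 104 CPM in the Ung-led and 117 CPM in the Cdc20-led cluster, and stood at 229, 216 and 185 CPM in the 3 clusters between them. *Hdac8* had its place late: 21.2, 22.9 and 22.8 CPM in the first 3 clusters, then 47.2 CPM in the Cenpf-led (SD 21.9) and 38.3 CPM in the Cdc20-led cluster (SD 13.5). The libraries ran from 19.2 to 84.7 CPM in the Cenpf-led cluster, the lowest being *Smc3* wt/- replicate 2, and from 22.5 to 58.6 CPM in the Cdc20-led one. *Pds5a* stood at 87.5 CPM in the Mxd3-led cluster and 50 CPM in the Cenpf-led one, where *Pds5b* had its highest mean, 45.5 CPM (SD 10.5). The Aurka-led cells were deep, with a median of 13618.5 UMIs outside the immunoglobulin genes against 4340 in the Cdc20-led cells. *Smc3* wt/- replicate 2 gave 18 of the Aurka-led cells.

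**Figure D2:**
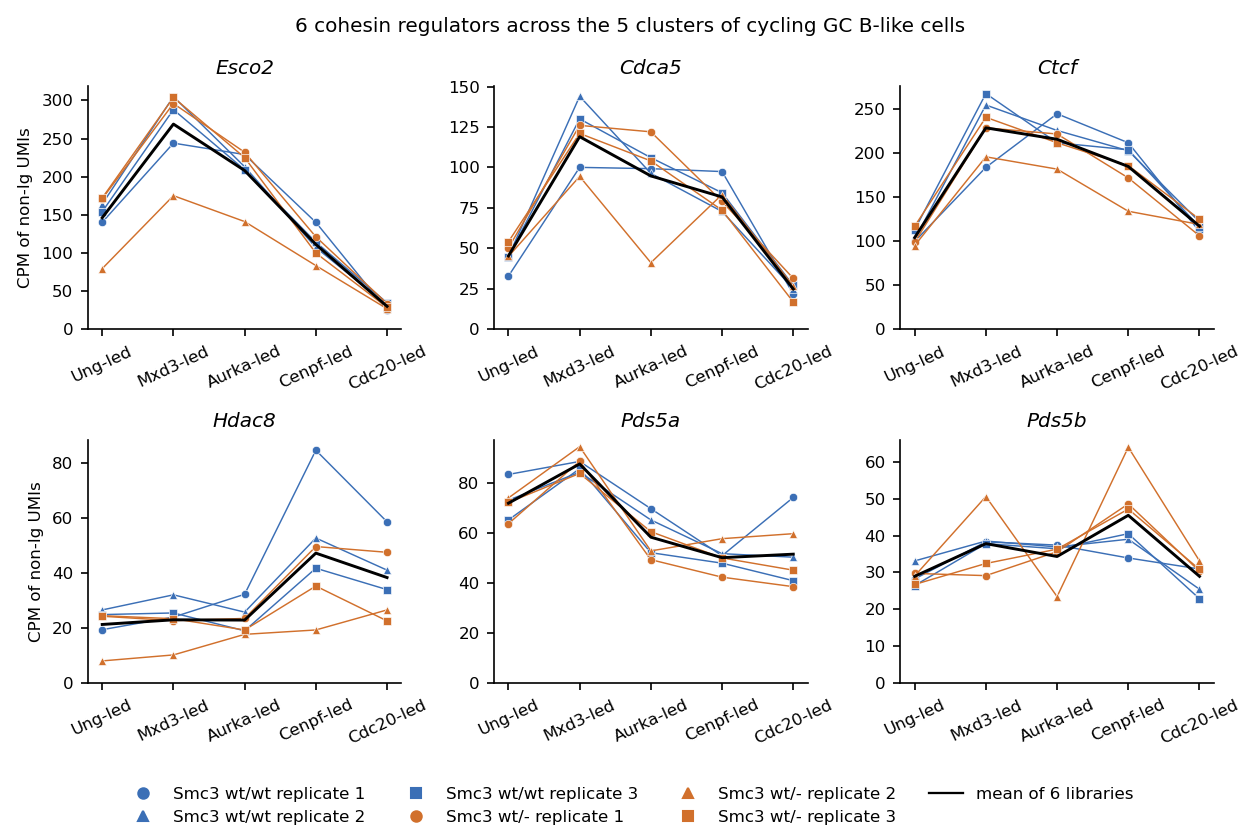
Level of 6 regulators in CPM of non-immunoglobulin UMIs (vertical axis, from 0) across the 5 clusters of cycling GC B-like cells (horizontal axis, in the order described in the text), with 1 thin line per library and the mean in black. *Esco2* and *Cdca5* peak in the Mxd3-led cluster at means of 269 and 119 CPM, and *Hdac8* is highest in the Cenpf-led cluster at 47.2 CPM.

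The next comparisons set neighbouring B cell states against each other. States were clusters named from marker genes, and neither the regulators nor other cohesin genes were among the genes clustered on. Other cell cycle genes were, and the CB-like state was called partly by them, so states differ in cycling by construction: 80.8% of CB-like cells were called G2M, 57.7% of CC-like cells G1, 56.3% of recycling-like cells S, and 92.7% of naive or memory B-like cells G1. Phase shares of states are over the cells with at least 2000 UMIs, which were 1156 of 1842 naive or memory B-like cells and 3326 of 3731 Pxdc1-led cells. A cluster of 3731 cells led by haemoglobin genes and *Pxdc1* kept *Cd79a* and received no name. Its 7 erythroid markers summed to 3280 CPM.

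**Figure D3:**
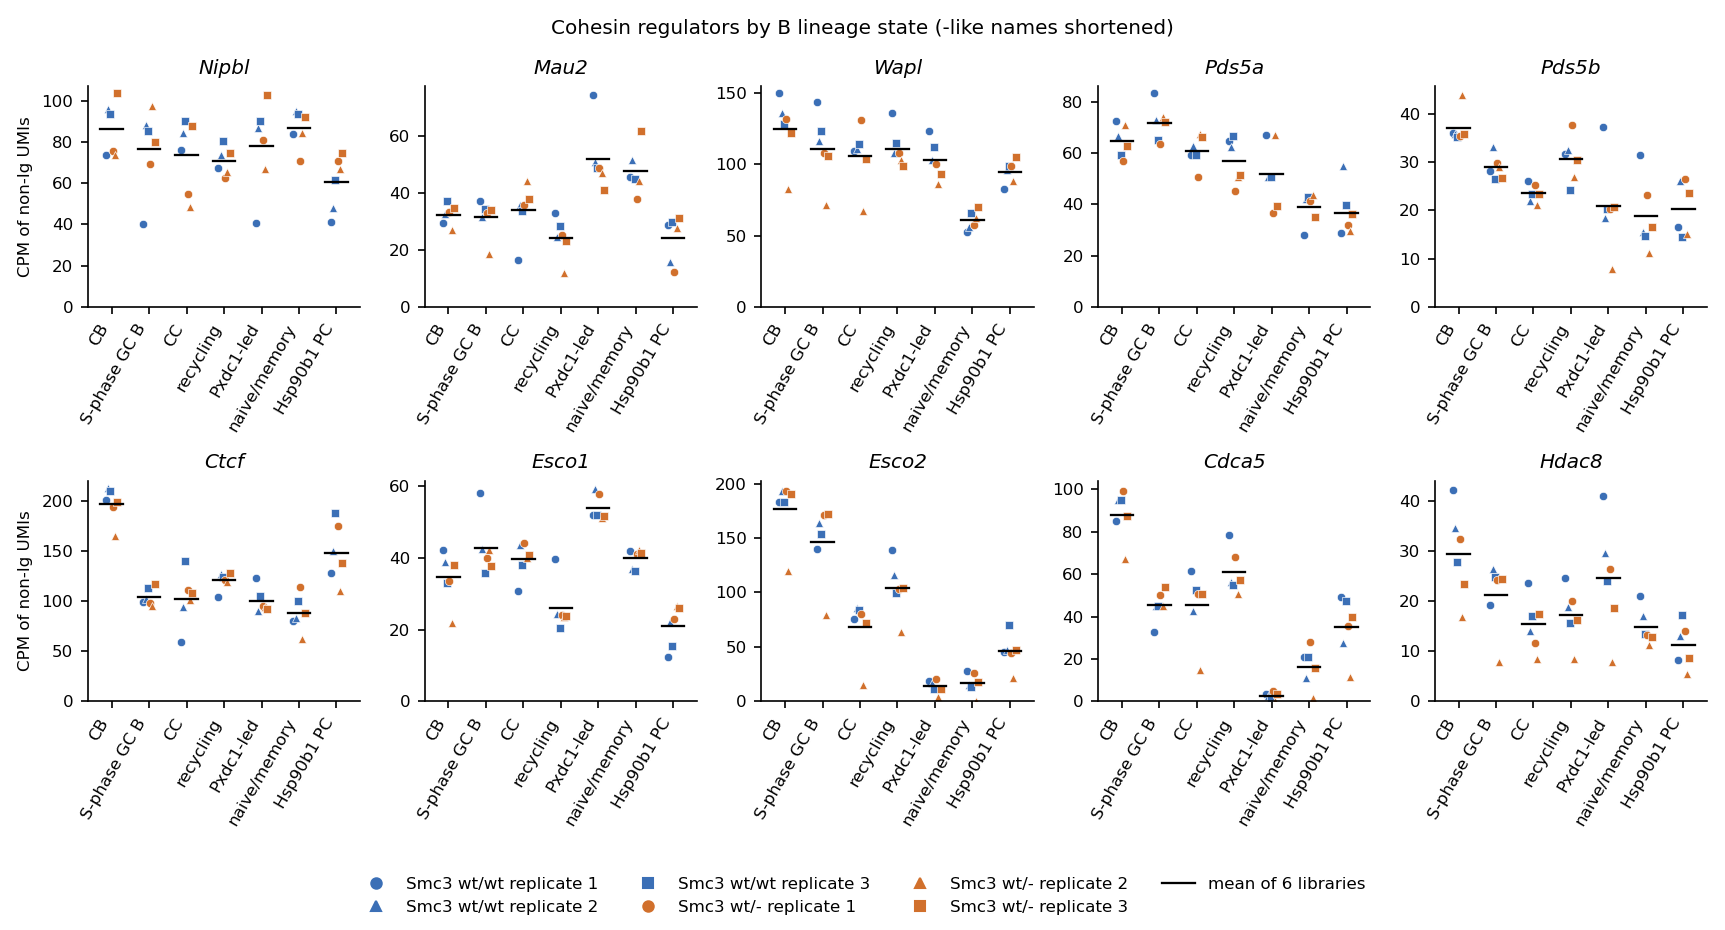
Level of each regulator in CPM of non-immunoglobulin UMIs (vertical axis, from 0) in 7 B lineage states (horizontal axis), with 1 point per library and the mean as a bar. *Esco2* runs from a mean of 177 CPM in CB-like cells to 13.8 CPM in the Pxdc1-led cells, while *Esco1* and *Mau2* have their highest means, 54 and 51.8 CPM, in the Pxdc1-led cells.

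Between CB-like and CC-like cells, 7 of the 10 regulators were lower in CC-like cells and 3 were not called, where 45.8% of the 8379 genes tested differed. The median log2 fold change was -0.47 for the members and -0.05 for all genes. *Esco2* stood at 120 to 193 CPM in CB-like and 14.7 to 86.1 CPM in CC-like cells with medians of 187 and 78 CPM, and was 0.391-fold in CC-like cells. *Cdca5* was 0.502-fold, *Ctcf* 0.513-fold and *Hdac8* 0.512-fold (edgeR adjusted p = 2.93e-10, 2.61e-13 and 1.12e-08), and *Pds5b* was 0.629-fold, from 35.1 to 43.9 CPM down to 21 to 26.1 CPM without overlap. *Nipbl* and *Wapl* were 0.831-fold and 0.824-fold (edgeR adjusted p = 0.0137 and 0.00615).

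Both of these last calls depended on which libraries were kept, and that of *Nipbl* was also lost at clustering resolution 1 (log2 fold change -0.17, edgeR adjusted p = 0.11). That of *Nipbl* was lost without any of *Smc3* wt/wt replicate 1 (log2 fold change -0.21) and *Smc3* wt/- replicates 1, 2 and 3 (-0.20, -0.14 and -0.25), and that of *Wapl* without *Smc3* wt/wt replicate 1 or 2 or *Smc3* wt/- replicate 3 (-0.18, -0.25 and -0.27). *Esco1*, *Mau2* and *Pds5a* had log2 fold changes of 0.12, 0.00 and -0.10 (SE 0.11, 0.12 and 0.09). Without integration *Pds5a* passed (-0.24, edgeR adjusted p = 0.015). Among the 3 *Pds5* and *Wapl* genes, *Pds5b* was the one whose CB-like and CC-like libraries did not overlap.

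Recycling-like cells, which carry *Myc* targets and are thought to be centrocytes chosen to divide again, had more of the establishment factors than CC-like cells. The CC-like cluster had *Myc* itself among its 10 leading genes, beside *Nfkbid*, *Il4i1* and *Cd83*, and 25.1% of its phased cells were called S and 17.3% G2M. Whether it holds selected centrocytes too was not tested. Against CC-like cells 4 members rose and 2 fell, where 50.6% of genes differed, and the median log2 fold change was 0.17 for the members and 0.03 for all genes. *Esco2* was 1.5-fold, *Pds5b* 1.38-fold, *Cdca5* 1.33-fold and *Ctcf* 1.22-fold higher (edgeR adjusted p = 9.93e-06, 0.00161, 0.00642 and 0.0104). *Esco1* was lower, at 0.634-fold (edgeR adjusted p = 1.16e-05), with 20.4 to 39.8 CPM against 30.8 to 44.3 CPM, and *Mau2* was 0.766-fold. *Hdac8*, *Wapl*, *Pds5a* and *Nipbl* were not called, at 1.19-fold, 1.07-fold, 1.01-fold and 0.991-fold, though *Hdac8* and *Wapl* passed with doublets kept (log2 fold change 0.53 and 0.26) and without integration (0.45 and 0.34). The *Ctcf* call was lost without *Smc3* wt/wt replicate 2, *Smc3* wt/- replicate 1 or *Smc3* wt/- replicate 3 (log2 fold change 0.23, 0.28 and 0.29), and the *Mau2* call without *Smc3* wt/wt replicate 2 or *Smc3* wt/- replicate 3 (-0.37 and -0.31). The *Mau2* call was lost in 8 of 16 alternatives, also with all libraries kept, as without integration (-0.13) or at clustering resolution 1 (-0.27), and its sign turned per cell.

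Among cells called G1 in both states the establishment factors were also called. *Cdca5* had a log2 fold change of 1.78 and *Esco2* of 1.62 between recycling-like and CC-like cells (edgeR adjusted p = 7e-07 and 2.1e-06), *Pds5b* 0.69 and *Esco1* -1.10, while *Ctcf* and *Mau2* were no longer called (0.32 and -0.37, edgeR adjusted p = 0.076 and 0.18). Recycling-like cells were also deeper than CC-like cells, at medians of 14801 and 5268 UMIs outside the immunoglobulin genes. Per cell the median gene was 1.41 higher on the log2 scale, *Esco2* stood 0.65 and *Cdca5* 0.45 above that shift, and *Esco1* 0.66 and *Mau2* 0.42 below it, so that their own values read 0.75 and 0.99.

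Naive or memory B-like cells divide little. Against CC-like cells they had 0.222-fold the *Esco2* level and 0.353-fold the *Cdca5* level (edgeR adjusted p = 8.55e-14 and 5.2e-08), with *Esco2* at 0.622 to 28 CPM. *Wapl* was 0.655-fold and *Pds5a* 0.736-fold (edgeR adjusted p = 1.3e-05 and 0.00403). Both loader genes were higher, *Mau2* 1.57-fold and *Nipbl* 1.27-fold (edgeR adjusted p = 0.000258 and 0.00812), which made 2 members up and 4 down where 55.6% of genes differed. The median log2 fold change was -0.24 for the members and 0.01 for all genes. Among cells called G1 in both states *Mau2* and *Nipbl* kept their calls, at log2 fold changes of 0.76 and 0.40, as did *Esco2*, *Cdca5* and *Wapl*, and *Pds5a* did not (-0.30, edgeR adjusted p = 0.15). Per cell, where the median gene was lower by 0.97 on the log2 scale, *Mau2* and *Nipbl* read -0.36 and -0.63. *Pds5b*, uncalled at 0.784-fold, passed without *Smc3* wt/wt replicate 1 (log2 fold change -0.44, edgeR adjusted p = 0.048), without integration (-0.61, edgeR adjusted p = 0.0093) and per cell (-1.33). *Ctcf*, *Esco1* and *Hdac8* were not called, at 0.909-fold, 1.09-fold and 1.1-fold, and without integration *Ctcf* and *Esco1* passed (log2 fold change -0.37 and 0.34, edgeR adjusted p = 0.015 and 0.035).

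In the order of states by mean level, *Esco2*, *Cdca5*, *Ctcf*, *Hdac8*, *Pds5b* and *Wapl* each had CB-like cells first. The unnamed Pxdc1-led cells, of which 98.2% of those deep enough were called G1, had *Esco2* at 3.93 to 20.3 CPM and *Cdca5* at 0 to 5.07 CPM, beside the highest means of *Esco1* (54 CPM, SD 3.55) and *Mau2* (51.8 CPM, SD 11.6) in the 7 states ordered. Neighbours in these orders overlapped in their library ranges, with 2 exceptions, and how often other genes overlap likewise was not counted. *Pds5b* was narrowly apart, with 26.4 CPM as its lowest S-phase value and 26.1 CPM as its highest CC-like value. *Wapl* stood at 82.3 to 105 CPM in Hsp90b1-led PC-like cells and at 52.5 to 70.2 CPM in naive or memory B-like cells.

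Plasma cells came as an Hsp90b1-led cluster of 568 cells, 65.8% of them called G1 and 23.7% called G2M, and a Prg2-led cluster of 1502 cells, 99.9% of them called G1. The second was almost a single library, with 1417 cells from *Smc3* wt/- replicate 2 and 12 to 23 cells from each of the others, so the cluster and that library cannot be told apart. The 17 plasma cell markers took 359000 CPM in the Prg2-led and 61300 CPM in the Hsp90b1-led cells. The study named plasmablasts from *Myc* and S phase genes beside plasma cell signatures, and no marker list was set for them here. Of the Hsp90b1-led cells 10.5% were called S, so the 2 clusters also differ in cycling. Whether the Hsp90b1-led cells match the plasmablasts of the study was not tested.

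Against CB-like cells, 9 of the 10 regulators were lower in Hsp90b1-led PC-like cells, where 65% of genes differed. *Mau2*, at 0.822-fold, was not called (edgeR adjusted p = 0.116), though it was in 5 of 15 alternatives, among them DESeq2's Wald test (log2 fold change -0.40, adjusted p = 0.024). The median log2 fold change was -0.62 for the members and -0.16 for all genes. *Esco2* was 0.289-fold and *Cdca5* 0.405-fold (edgeR adjusted p = 3.86e-18 and 1.09e-10), and *Hdac8* was 0.444-fold. *Pds5a* and *Pds5b* were 0.627-fold and 0.602-fold and *Esco1* 0.675-fold. Of the 568 cells, 328 came from *Smc3* wt/- replicate 2, and without it 7 members were called lower, where 62.5% of genes differed, with *Pds5a* and *Pds5b* at 0.777-fold and 0.730-fold (edgeR adjusted p = 0.019 and 0.012). *Nipbl* at 0.764-fold was not called without *Smc3* wt/wt replicate 1 (log2 fold change -0.21). *Ctcf* at 0.798-fold was not called without *Smc3* wt/wt replicate 1, *Smc3* wt/- replicate 1 or *Smc3* wt/- replicate 2 (-0.15, -0.26 and -0.08), with doublets kept or at resolution 1 (-0.21 in each). *Wapl* at 0.836-fold was not called without any one library other than *Smc3* wt/- replicate 3 (-0.25 to -0.06), and was lost in 8 of 15 alternatives in all. Per cell the median gene was 0.44 higher on the log2 scale, and *Ctcf*, *Nipbl* and *Wapl* read 0.38, 0.22 and 0.39. *Esco1*, *Pds5a* and *Pds5b* lost their calls per cell, at -0.03, -0.05 and -0.17.

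In the Prg2-led cells the establishment factors were close to the limit of detection. *Esco2* gave 1 UMI in all 1502 cells against 222 UMIs in the 568 Hsp90b1-led cells, a ratio of levels of 0.339% with an exact 95% interval of 0.00854% to 1.91%. *Cdca5* gave 5 UMIs against 155, a ratio of 2.43% (0.777% to 5.78%). These sums mix libraries in different shares. Within *Smc3* wt/- replicate 2 alone, *Esco2* gave 1 UMI against 39, a ratio of 0.699% (0.0173% to 4.13%), and *Cdca5* 3 against 21, a ratio of 3.90% (0.744% to 13%). Without that library *Cdca5* was at 0.138-fold (edgeR adjusted p = 0.0018), with 11.2 and 15.9 CPM in *Smc3* wt/wt replicate 2 and *Smc3* wt/- replicate 3 and 0 in the other 3, and *Esco2* had 0 UMIs in all 5 remaining libraries. *Ctcf* was lower at 0.616-fold (edgeR adjusted p = 2e-04), and at 0.249-fold without *Smc3* wt/- replicate 2 (edgeR adjusted p = 1.2e-06). Its ratio of CPM, before edgeR's scaling, was 37.8% (33.3% to 42.8%), and 49.7% within that library. With all libraries 3 members fell and 1 rose, where 40% of genes differed, with a median log2 fold change of -0.40 for the members and 0.04 for all genes. *Esco1* was 1.76-fold higher after edgeR's scaling (edgeR adjusted p = 0.000938), though its ratio of CPM was 116% (91.5% to 147%). Per cell, where the median gene was at -1.58 on the log2 scale, it read -0.76 (edgeR adjusted p = 0.0044). Its call was lost without *Smc3* wt/- replicate 2 (log2 fold change 0.21, edgeR adjusted p = 0.8). Without that library the median gene moved to -0.54, and *Wapl* and *Pds5b* passed (log2 fold change -0.98 and -2.99). *Wapl*, *Pds5a* and *Pds5b* passed without *Smc3* wt/wt replicate 1 (-0.40, -0.66 and -0.68). With all libraries they were at 0.809-fold, 0.714-fold and 0.672-fold and not called, but *Pds5a* passed in 5 and *Pds5b* in 6 of 15 alternatives, among them doublets kept (edgeR adjusted p = 0.03 and 0.048) and no integration (0.0029 and 0.034). *Mau2*, *Nipbl* and *Hdac8* were not called, at 1.29-fold, 1.18-fold and 1.12-fold. Without *Smc3* wt/- replicate 2 they read 1.11-fold, 0.91-fold and 0.398-fold and stayed uncalled.

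The study's own contrast is genotype. No regulator was called between *Smc3* wt/- and *Smc3* wt/wt in GC B-like cells, and in edgeR's test 0% of the 10823 genes passed, with 184 at an unadjusted p under 0.05 and 2 called by DESeq2. Of the 10 members, 0 had an unadjusted p under 0.05. Their log2 fold changes ran from -0.41 for *Hdac8* (SE 0.23) to 0.04 for *Pds5b*, with a median of -0.09 against 0.00 for all genes.

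In these cells *Esco2* moved with 1 library. *Smc3* wt/wt replicates 1, 2 and 3 had *Esco2* at 153, 163 and 153 CPM and the *Smc3* wt/- replicates had 162, 75.6 and 160 CPM, so that replicate 2 alone lay below all others. The log2 fold change was -0.22 (SE 0.24) with it and 0.02 (SE 0.11) without it. *Hdac8* stood at 32.1, 28 and 24 CPM against 26.5, 11.2 and 21.9 CPM, with log2 fold changes of -0.41 with the library and -0.23 (SE 0.13) without it. *Wapl* stood at 141, 124 and 123 CPM against 122, 82.8 and 113 CPM. The 2 genotypes came as close as 122 and 123 CPM, and the *Wapl* log2 fold change was -0.26 (SE 0.13, edgeR unadjusted p = 0.0829 and adjusted p = 1). It was -0.16 (SE 0.09) without replicate 2. *Smc3* itself stood at 168, 176 and 165 CPM against 162, 127 and 184 CPM, a log2 fold change of -0.08 (SE 0.15). The log2 fold changes of *Esco1*, *Cdca5*, *Pds5a*, *Ctcf*, *Mau2* and *Nipbl* were -0.14, -0.10, -0.09, -0.08, -0.07 and -0.05, with SEs of 0.13 to 0.20. Without replicate 2 all members lay between -0.23 and 0.03.

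**Figure D4:**
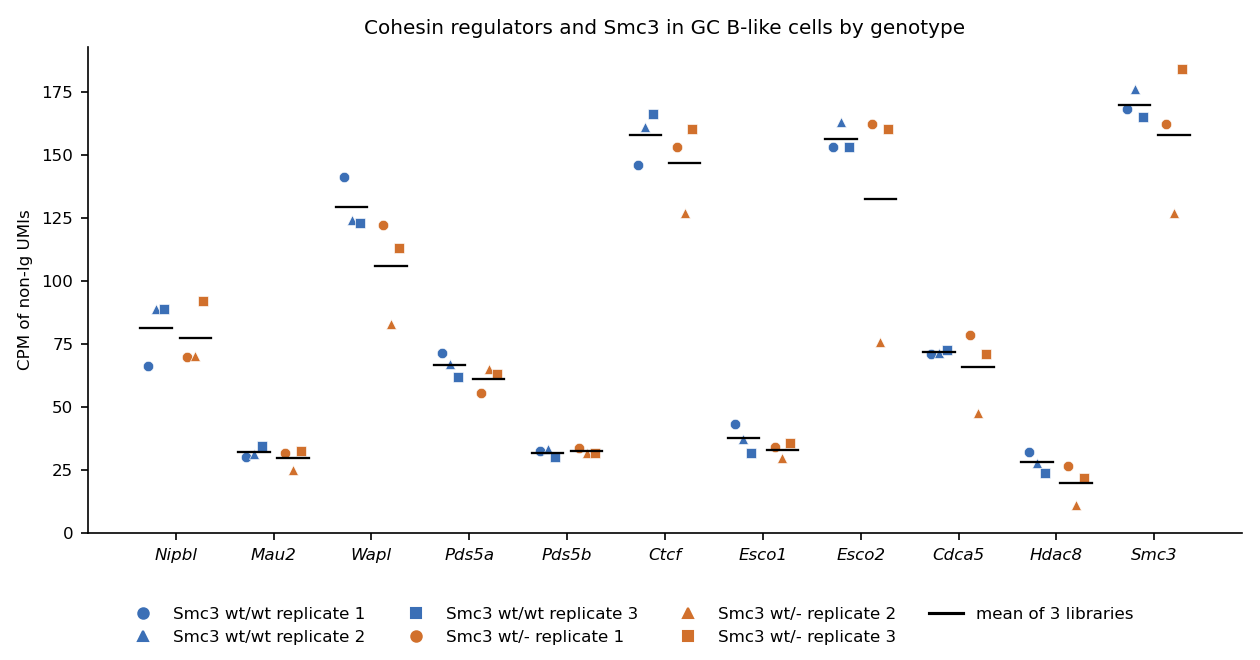
Level of the 10 regulators and of *Smc3* in CPM of non-immunoglobulin UMIs (vertical axis, from 0) in GC B-like cells of each library, with *Smc3* wt/wt in blue, *Smc3* wt/- in orange and the mean of 3 libraries as a bar. *Smc3* wt/- replicate 2 (orange triangle) is the lowest of the 6 libraries for *Esco2* at 75.6 CPM, *Cdca5* at 47.7 CPM and *Hdac8* at 11.2 CPM.

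In naive or memory B-like cells edgeR called 0% of 7057 genes (141 at an unadjusted p under 0.05, 0 by DESeq2), and the members ran from -0.44 to 0.17 on the log2 scale. The sign of the establishment factors turned with *Smc3* wt/- replicate 2: *Esco2* read -0.44 (SE 0.74) with it and 0.28 (SE 0.36) without it, and *Cdca5* -0.39 and 0.25. Without it the members ran from -0.38 to 0.28. In plasma-lineage cells it called 0% of 6012 genes (236 at an unadjusted p under 0.05, 0 by DESeq2), and the members ran from -0.84 for *Esco2* to 0.71 for *Esco1*, and from -0.51 to 0.40 without replicate 2. *Esco2* stood there at 39.1, 42 and 62.8 CPM in the *Smc3* wt/wt and at 41.8, 4.77 and 43.9 CPM in the *Smc3* wt/- libraries. Left without replicate 2, its log2 fold change read -0.30 with an SE of 0.28. A difference between the genotype effects in GC B-like and in naive or memory B-like cells was called for 0% of 8905 genes (251 at an unadjusted p under 0.05), and for the members it ran from -0.41 to 0.28. Without *Smc3* wt/- replicate 2 edgeR called 3 genes and no member, the members ran from -0.33 to 0.12, and *Cdca5* turned from 0.28 to -0.28 and *Esco2* from 0.22 to -0.33. In none of these comparisons did a member reach an unadjusted p under 0.05, and a p that misses the threshold does not show that levels were alike.

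Other genes of the cohesin cycle were measured in the same fits. Over all genes 33.2% differed between S and G1, 46.6% between G2M and G1 and 48.4% between G2M and S, and the lists are to be read against these shares. All 5 core subunits rose in S and all 5 in G2M against G1. *Smc3* was 1.49-fold and 1.38-fold higher, and *Rad21*, the subunit cut in mitosis, 1.54-fold and 3.01-fold, so the *Rad21* to *Smc3* ratio was 2.06-fold higher in G2M than in G1 in 6 of 6 libraries (exact permutation p = 0.03125, 0.0536 adjusted over 12 ratios). Between G2M and S, 2 core subunits rose and 1 fell. Of 7 genes that join cohesion to the replication fork, 5 rose in S and 2 in G2M against G1, and 4 fell between S and G2M, among them *Dscc1* at 0.418-fold, where *Esco2* was at 0.914-fold. Of 8 genes that protect or cut cohesin in mitosis, 7 rose and 1 fell in S and all 8 rose in G2M against G1 and against S. Of 4 boundary factors other than *Ctcf*, 3 were tested and *Ctcfl* had 0 UMIs; 2 rose in S, 2 in G2M against G1 and 0 between G2M and S.

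Across states the shares over all genes were 45.8% in CC-like and 65% in Hsp90b1-led PC-like against CB-like cells, 50.6% in recycling-like and 55.6% in naive or memory B-like against CC-like cells, and 40% in Prg2-led against Hsp90b1-led cells. Against CB-like cells, 5 of 5 core subunits fell in CC-like and 4 of 5 in Hsp90b1-led PC-like cells, as did all 8 protection and cleavage genes in both, of which *Plk1* and *Aurkb* are leading genes of a CB-like cluster. Of 6 fork genes tested, 1 rose and 1 fell in CC-like cells and 2 fell in Hsp90b1-led PC-like cells, and 3 of 3 boundary factors tested fell in both. In recycling-like against CC-like cells, 4 of 6 fork genes and all 8 protection and cleavage genes rose, 1 of 3 boundary factors rose, and 2 core subunits rose and 1 fell. In naive or memory B-like cells 3 core subunits, 6 of 6 fork genes, 5 protection and cleavage genes and 1 boundary factor fell. In the Prg2-led against the Hsp90b1-led cells 3 core subunits, 5 fork genes, 7 protection and cleavage genes and 1 boundary factor fell, and 1 protection and cleavage gene rose. With genotype, 0 genes of these 4 lists were called in any class.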

How the data were processed

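The deposited counts were whole numbers of UMIs per gene and cell barcode, made by the authors with Cell Ranger from 10x Genomics 3′ libraries on mm10, per the labels and the methods of the study, which also name R 4.0.2 and Seurat 4.0.0. No normalized values were used. Barcodes below 500 genes or above 10% mitochondrial UMIs were left out, and the highest Scrublet scores (scanpy 1.11.5; 0.8% per 1000 barcodes, 721 in all) were removed as doublets. Cells were clustered in Seurat 5.3.0 under R 4.3.3 (reciprocal PCA, 30 components, 20 neighbours, resolution 0.5) on 1881 genes without the members and 4 cohesin lists (core subunits, fork establishment, protection and cleavage, other boundary factors) and named from markers, whose scoring rule was set with values known. Names end in "-like" because they were rebuilt, and may differ from those of the study. Phases were called on cells thinned to 2000 UMIs from 41 S and 51 G2M genes. UMIs without the 392 immunoglobulin genes were summed per library and state (at least 10 cells), phase or class (at least 20 cells), and tested with edgeR 4.0.16 (TMM, filterByExpr, quasi-likelihood test, prior count 1, Benjamini-Hochberg over all genes, 0.05), with the library as a term for phases and states and no covariate for genotype. SEs are the log2 fold change over the root of F. The fits were tested on simulated data. All 10 members are given in each comparison of phases and states, and in GC B-like cells between genotypes, and elsewhere by their range, and up to 4 genes per list with the lowest adjusted p could be. The members and lists were chosen with earlier results of these data known. The alternatives tried were the DESeq2 1.42.0 Wald test, DESeq2 size factors in edgeR, no count filter, immunoglobulin genes kept, UMIs per cell, other cell filters (200 genes, 20% mitochondrial UMIs), doublets kept, no integration, resolution 1, other thinning, G1 cells only, a replicate block and each library left out. The markers held no list for plasmablasts, so no cluster could be named plasmablast-like. Both plasma comparisons and the Pxdc1-led cluster counted as GC B-like were set after seeing the data. Same-numbered libraries deviated together in all 3 pairs in naive or memory B-like cells (r = 0.262, 0.189 and 0.142), but not in GC B-like (0.214, 0.0836 and 0.201) or plasma-lineage cells (0.151, 0.0926 and 0.178). Further wild-type libraries of the study were not analysed here.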

Additional observations from a re-analysis of the deposited data

Results flagged for a closer look

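Levels of the regulators were checked for single libraries far from the other 5, by the gap to the nearest library over the whole range against Dixon's 95% critical value for 6 values. Of 110 groups of 6 values, 17 passed, 12 of them through *Smc3* wt/- replicate 2 and 5 through *Smc3* wt/wt replicate 1, where chance gives about 1 in 20. *Esco2* in *Smc3* wt/- replicate 2 was low in GC B-like cells as a whole, at 75.6 CPM against 153 to 163 CPM in the other libraries. It also passed the check in 5 groupings of those cells, and not in G1 or in recycling-like cells: 115 CPM against 180 to 204 CPM in S, 107 CPM against 163 to 181 CPM in G2M, 120 CPM against 183 to 193 CPM in the CB-like, 79.2 CPM against 140 to 172 CPM in the S-phase and 14.7 CPM against 71.8 to 86.1 CPM in the CC-like state. In the same library *Cdca5* was at 47.7 CPM against 71 to 78.5 CPM in GC B-like cells and *Ctcf* at 143 CPM against 192 to 209 CPM in G2M. *Mau2* was at 12.3 CPM against 26.5 to 34.8 CPM in S and at 18.5 CPM against 31.7 to 37.2 CPM in the S-phase state, and *Hdac8* was at 8.23 CPM against 18.9 to 23.7 CPM in S. *Pds5b* alone was high in it, at 43.9 CPM against 35.1 to 35.9 CPM in CB-like cells. The plasma cell markers moved with these values, as given in the report, and their part in them was not tested.

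In *Smc3* wt/wt replicate 1, the library with the fewest UMIs, *Esco1* was high at 48.1 CPM against 32 to 36.9 CPM in S, at 58 CPM against 35.9 to 42.4 CPM in the S-phase state and at 39.8 CPM against 20.4 to 24.3 CPM in recycling-like cells. *Ctcf* was low in its recycling-like cells, at 104 CPM against 119 to 128 CPM, and *Mau2* was high in its Pxdc1-led cells, at 74.4 CPM against 41 to 50.9 CPM.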

How the results depend on the processing

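Of 1848 values of the members under alternatives, 1716 kept their direction or stayed uncalled, 64 lost and 48 gained a call, and 20 changed sign with a call on either side; 73 more changed sign without one and are among the 1716. All 20 came from scaling to UMIs per cell. There *Nipbl* read 0.28 in S and *Esco1* 0.27 in S and 0.44 in G2M against G1, *Mau2* 0.07 and 0.38, and *Esco2* 0.07 in G2M against S. Against CC-like cells, *Esco1*, *Mau2* and *Nipbl* read 0.75, 0.99 and 1.41 in recycling-like and -0.86, -0.36 and -0.63 in naive or memory B-like cells, with *Hdac8* at -0.86. *Ctcf*, *Nipbl* and *Wapl* read 0.38, 0.22 and 0.39 in Hsp90b1-led against CB-like cells, and *Esco1*, *Hdac8*, *Mau2* and *Nipbl* -0.76, -1.47, -1.17 and -1.45 in Prg2-led against Hsp90b1-led cells. The median gene shifted with them, by -0.30 in CC-like against CB-like, -0.97 in naive or memory B-like and -1.58 in Prg2-led cells, and by amounts given in the report elsewhere.

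Per cell, 5544 genes were called in S (96.6% higher, against 53.9% in CPM) and 7499 in G2M against G1 (96.6% against 49.7%), 7725 in recycling-like cells (98.9% against 54.9%) and 7197 in Prg2-led cells (1% against 48.3%). The higher share was also 85.7% against 49.8% between G2M and S, 18.4% against 44% in CC-like, 78.2% against 40.8% in Hsp90b1-led and 5.79% against 49.7% in naive or memory B-like cells. With the Pxdc1-led cluster counted as GC B-like, 5304 genes were called between S and G1. For genotype, DESeq2 called 2 genes in GC B-like cells, and without the count filter edgeR called 16 in naive or memory B-like and 60 in plasma-lineage cells and 49 for the difference between classes. Leaving out each library gave 0 to 3 genes for that difference, the 3 without *Smc3* wt/- replicate 2. It gave 2442 to 3297 genes for S against G1, 3584 to 4478 for G2M against G1, 3607 to 4735 for G2M against S, 3066 to 4234 for CC-like, 3518 to 4592 for recycling-like, 4042 to 4793 for naive or memory B-like, 4976 to 5500 for Hsp90b1-led and 2428 to 3360 for Prg2-led cells. The fits with a replicate block called 0 genes in all 3 classes and changed no member's call, and whether same-numbered libraries are pairs was not tested. The planned plasmablast comparisons could not be made, because no marker list named plasmablasts. The cause of these changes was not tested. Depth limits *Esco2* and *Cdca5* in the 5 libraries with 12 to 23 Prg2-led cells, where 3 UMIs stand for 24.3 to 94.7 CPM.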

Other observations

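Outside the B lineage, UMIs of the regulators were also counted in the droplets of 535 T cell-like cells, where free RNA of other cells was not measured apart. *Ctcf* averaged 103 CPM (SD 28.5, n = 6 libraries), *Nipbl* 92.4 CPM (SD 19.2), *Esco1* 53.1 CPM (SD 18.8) and *Esco2* 17 CPM (SD 10.6), the last near the 16.9 CPM of naive or memory B-like cells. After thinning to 2000 UMIs, 3.91% of the 179 T cell-like cells that were deep enough had an *Esco2* UMI (exact 95% interval 1.59% to 7.89%), and 19% had a *Ctcf* UMI (13.5% to 25.5%). Unthinned, at a median of 1664 UMIs, these shares were 2.8% and 19.3%.

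The 8379 genes of the state fits, those of the cohesin lists included, were ranked by the correlation of their level with that of each regulator. The correlations are over 48 sums of 6 libraries and 8 states, which share libraries and states and of which 6 hold 12 to 23 cells. The nearest to *Esco2* were *Depdc1a* (r = 0.949), *Cenpn* (0.949) and *Fignl1* (0.945). The nearest to *Cdca5* were *Cdc45* (0.923), *Tubb5* (0.917) and *Kif2c* (0.912), and the nearest to *Ctcf* were *Cenpe* (0.83), *Knstrn* (0.83) and *Ckap2* (0.819). The nearest to *Esco1* was *Rlf* (0.973), and the nearest to *Nipbl* was *Ing4* at 0.748, the lowest of the 10 first ranks. Among the members themselves, *Esco2* and *Cdca5* had r = 0.834, *Esco1* and *Esco2* 0.374, and *Nipbl* and *Mau2* 0.545.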
